A study of Mus musculus with 7 samples.

Results

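The genes described here are 37 mouse genes for SR proteins, SR-related proteins, spliceosome subunits and their kinases, out of 21853 nuclear protein-coding genes of the annotation. They were chosen by name as members of the splicing machinery, and all 37 were found in the annotation, each as 1 gene. The reads come from a study of RNA bound to Ezh2 in embryonic stem cell nuclei. Ezh2 is the methyltransferase of the Polycomb complex PRC2, and in RIP-seq an antibody recovers a protein together with its RNA. Its labels describe 7 libraries of untreated cells grown with LIF. Wild-type cells of the strain 129X(M.castaneusX129) gave 5 libraries with antibody to Ezh2, which include a technical replicate, a biological replicate and deeper runs of 2 lanes each from samples already in the series. The same strain gave 1 library with IgG, and Ezh2-null cells, whose strain is labelled M.musculus, gave 1 with antibody to Ezh2. The deposited table gives read sequences and how often each was read. No sample label ties it to any of these libraries. Its name carries the letters WT and BR, which no label explains and which were not used to assign it, so which library or libraries it holds is not known. It is treated as 1 set of reads without replicates. No value below is an enrichment over IgG or over Ezh2-null cells, and binding to Ezh2, binding to the beads and the abundance of each mRNA in the nucleus cannot be told apart. Nor can more cells with an mRNA be told from more of it per cell.

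Splicing removes introns in a particle built from the U1, U2, U4, U5 and U6 small nuclear ribonucleoproteins (snRNPs). SR proteins bind exonic enhancers through an RNA recognition motif and recruit the snRNPs through a domain rich in arginine-serine repeats, the RS domain, which the CLK and PRPF4B kinases phosphorylate. Many SR protein genes limit their own output by splicing in a poison exon, which carries an early stop codon and sends the mRNA to nonsense-mediated decay (NMD), or by keeping an intron in a transcript that stays in the nucleus.

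The table holds 34072479 reads of 6540936 sequences, of which 31529044 reads were long enough to be searched against the GENCODE transcripts. A single gene took 28.3% of them in RNA-sense and 7.92% in antisense orientation, 11.2% matched several genes equally, and 52.6% matched no transcript. The 36-base reads number 6252281 and the 40-base reads 24772940, and no label says what separates them. Of 10 markers of embryonic stem cells 9 reached 50 sense reads (Nanog had 37), at levels from 0.523 to 299 RPKM (sense reads per kb of merged exons, scaled to 1000000 searched reads). All 8 markers of fibroblasts did, at 2.56 to 108 RPKM. The part of either cell type in the results below was not tested. All intervals are 95% intervals and cover counting error only, since copies made by PCR cannot be told from separate molecules.

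The reads of these mRNAs were gathered at few places, and the highest site is shown here for 7 of the 8 members with most reads. The site of the other one, Acin1, lies in the downstream untranslated region and is not printed. Each line gives 30 bases of the mRNA, 5′ to 3′, from the GENCODE transcripts (GRCm38). The last lower-case base is the start position, where the matched part of a read begins, and the reads run from there towards the 5′ end of the mRNA. Srsf11, Sf3b2 and Sf3b3 lie on the minus strand and the other 4 genes on the plus strand. The 6 capitals are the bases that follow it, which face the leading 6 bases of the read that were left out of matching.
Srsf11: tcgctcaccatccccaaggagacaTAAAAA
Sf3b2: ttgaggctttcaagctaactgatgATGTGA
Son: agaagcataaaaagcacaaaaacaAAAAGA
Prpf4b: aagagcagatccaaagaacggaccAGGCAC
Srsf4: atgacagtaaaagtcggagcaggaGCCAGG
Sf3b3: tggggaagaagaagttacttcgaaAGTGTG
Rbm25: agaacgggaacgagaacgagagcgAGAGAG
These 7 sites lie in coding sequence, unlike that of Acin1. In Srsf4 the site lies in an RS-rich stretch, and in the other 6 it does not.

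Nearly all members were read. Of the 37, 36 had at least 50 sense reads, against 29.6% of all nuclear protein-coding genes, and 31 had at least 200. Their median level was 4.08 RPKM, against 0.0912 RPKM over all nuclear protein-coding genes and 0.963 RPKM over the 6477 genes with at least 50 sense reads. Together they took 176758 sense reads at 4314 start positions, and 4 of them stood among the 100 highest nuclear coding genes by RPKM, 19 among the 1000 highest. Of these reads, 48.1% belonged to Srsf11 and 72.9% to Srsf11, Sf3b2 and Son. Of 96 other splicing genes listed for comparison, 75 had 50 or more sense reads, and their median was 1.14 RPKM. The highest of them by reads were the DEAD-box helicase gene Ddx23 (22429 sense reads, 114 RPKM), Rbm5 (4038, 8.30 RPKM), Cherp (3817, 26.2 RPKM) and Rbm17 (3686, 48.6 RPKM).

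Among the SR proteins the levels spanned from Srsf11 to Srsf9. Srsf11, whose product interacts with splice-site factors, had 85015 sense reads (Poisson interval 84444.5 to 85588.4) and 319 RPKM, rank 9 among nuclear coding genes. Srsf4 followed with 5632 reads (50.2 RPKM), then Srsf6 with 2351 (15.5 RPKM) and Srsf7 with 1525 (13.6 RPKM). The level of Srsf4 depended on the setting. With each distinct sequence counted once it was 133 RPKM, above Sf3b2 at 104. Without mismatches it was 31.4 RPKM, below Son at 38.9. The widely studied members of the family stood lower, Srsf1 with 1218 reads at 6.77 RPKM, Srsf2 with 143 at 1.53 RPKM and Srsf3 with 338 at 1.36 RPKM. Srsf5 had 513 reads (4.08 RPKM), Srsf10 575 (2.60 RPKM) and Srsf12 86 (0.866 RPKM). Of the 86 Srsf12 reads 47 lay at 1 position. The lowest with mismatches allowed was Srsf9, with 12 sense reads (6.20 to 21.0) and 0.230 RPKM. Without mismatches Srsf12 was at 0.0705 RPKM and Srsf9 at 0.192 RPKM. The group median was 4.08 RPKM, and 10 of 11 had at least 50 sense reads.

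SR-related proteins, which carry RS repeats without the layout of the SR family, had a median of 6.25 RPKM and all 9 had at least 50 sense reads. Son, a large protein of nuclear speckles, led with 19567 reads (41.6 RPKM), followed by the apoptosis and exon junction factor gene Acin1 with 5516 (16.6 RPKM). Without mismatches Acin1 was at 8.98 RPKM. Tra2a, a sequence-specific splicing activator, had 2187 reads at 9.99 RPKM, and its paralog Tra2b had 820 at 2.82 RPKM. Rbm25 had 2754 reads, Srrm2 2529, Rbm39 1633, Pnn 979 and Srrm1 594, the lowest of the group at 2.58 RPKM.

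The U1 group had similar levels in reads of 1 gene. The U1 protein gene Snrnp70 (746 reads, 3.11 RPKM) and the U1-associated Luc7l3 (2.95 RPKM), Luc7l (2.45 RPKM) and Luc7l2 (2.38 RPKM) lay close together. With reads of several genes counted for each, Luc7l2 was at 12.1 RPKM and Luc7l at 2.59 RPKM. In the U2 group, which marks the branch point and the 3′ splice site, Sf3b2 had 24225 reads at 113 RPKM and Sf3b3 3108 at 9.03 RPKM. Sf3b1, their partner in the same SF3b complex, had 868 reads at 2.42 RPKM, U2af2 had 294 at 2.27 RPKM, and the lowest were Sf3a1 (186 reads, 0.960 RPKM) and U2af1 (64 reads, 0.781 RPKM). Subunits of one complex thus differed widely in reads per kb. In Sf3b2 75.1% of the reads on the longest coding isoform started within 100 bases, and whether the amounts of these mRNAs differ was not tested. The tri-snRNP genes ran from Prpf6 at 4.77 RPKM over Snrnp200 at 3.84 and Prpf8 at 1.78 to Prpf3 at 0.588 RPKM. Of the kinases, Prpf4b had 7002 reads (26.3 RPKM), Clk1 1159 (4.52 RPKM) and Clk4 903 (4.94 RPKM).

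Some of the low counts stand for sequence that is not unique to the gene. U2af1 had 1376 further sense reads that matched another gene equally well, Luc7l2 had 3686, Srsf3 447 and Srsf5 545, in each case more than the reads counted for it. Of the 34-base windows of the longest coding isoform, 36.9% returned to the gene alone for U2af1, 60.2% for U2af2, 63.4% for Srsf3 and 64.8% for Srsf5. For Srsf11, Sf3b2, Son, Srsf4, Sf3b3, Rbm25 and Tra2a 100% did. The levels given leave such shared reads out.

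**Figure D1:**
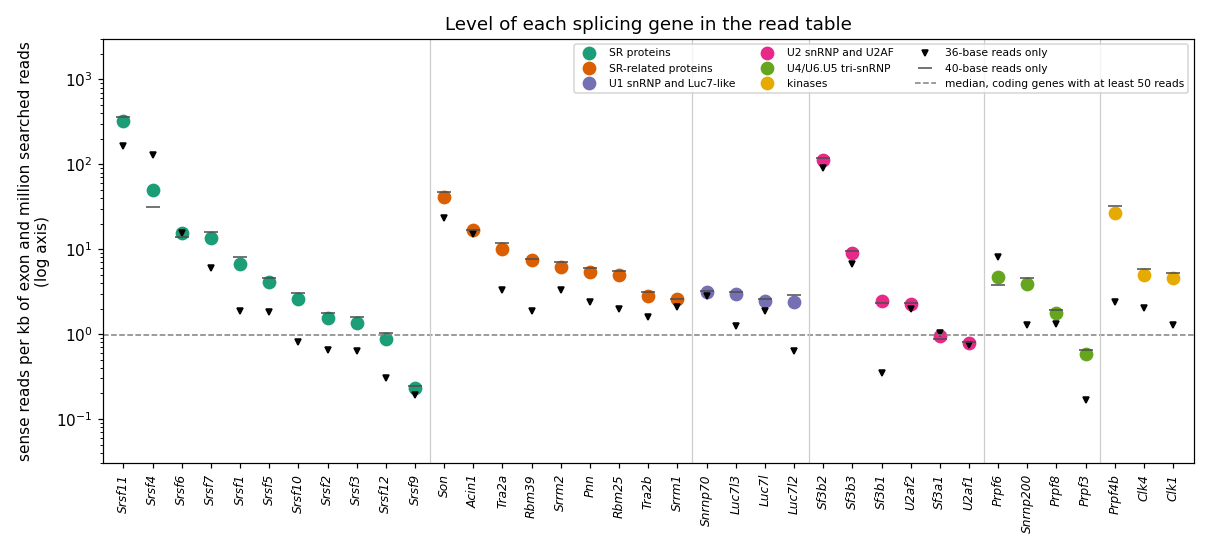
Level of each of the 37 genes in RPKM (log axis), grouped by role, for all reads (coloured circles), 36-base reads (triangles) and 40-base reads (bars), each scaled to its own total. Srsf11 at 319 and Sf3b2 at 113 stand above the others, and most members lie above the dashed line, the median of 0.963 over coding genes with at least 50 sense reads.

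Reads of the highest members came from short stretches of the mRNA. In Son, 94.1% of the 19486 reads on the longest coding isoform started within 100 bases (chr16:91654670-91654769, bases 706 to 805), which make up 1.15% of its length, and 77 of those positions were used. The stretch lies in exon 3, near the beginning of the coding sequence. In Prpf4b, 86.5% of the reads started in bases 844 to 943 (chr13:34883681-34883780), upstream of its RS-rich stretches. For Srsf11 the share was 83.1%, or 69144 reads at 97 of 100 positions, in bases 1226 to 1325, which follow the last RS-rich stretch of that mRNA. Sf3b2 had 75.1% in bases 1189 to 1288 and Srsf4 73.8% in bases 992 to 1091 (chr4:131900441-131900540), of which 83 bases are RS-rich. Acin1 had 49.0% in bases 3922 to 4021, with its single highest position, 550 reads, in the downstream untranslated region.

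Such gathering was not particular to splicing genes. Of the 28 members with at least 200 reads on the longest coding isoform, 15 had over 50% in 1 stretch of 100 bases, and 48.3% of all nuclear coding genes with as many reads did. The median share in that stretch was 52.9% in members and 49.1% in all such genes. Single positions held less in members: 6 of 31 with at least 200 sense reads had over 20% at 1 position, against 35.8% of all such genes, and the median share of the highest position was 12.7% against 16.2%. These 6 were Srrm2, Srsf6, Clk4, Prpf6, Son and Srsf3. Members were also read more deeply. Among genes with at least 200 reads on the longest coding isoform, the median was 995.5 such reads in members and 466 in all nuclear coding genes. The part of depth in the shares of single positions was not tested.

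In 5 of the 6 members with most reads these stretches held most reads of either length. In Son 95.2% of the 36-base and 94.1% of the 40-base reads on the isoform started there, in Srsf11 78.8% and 83.9%, in Sf3b2 63.8% and 77.3%, in Srsf4 70.8% and 76.9%, and in Prpf4b 68.8% of 125 and 86.9% of 6643. In Acin1 the stretch held 40.1% of the 36-base and 51.8% of the 40-base reads. With each distinct sequence counted once the share was 82.01% in Son and 76.8% in Srsf11. Tra2a differed, with 52.6% of all its isoform reads in a stretch of the downstream untranslated region, 55.1% of the 40-base reads and 14.7% of the 102 reads of 36 bases.

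The 7142 reads at the Srsf11 site shown above (chromosome 3, 158012446) comprised 596 distinct sequences with 130 different leading 6 bases, and 38.6% of the reads had the leader that matches the mRNA. In Son the site at 91654715 held 4603 reads, 23.5% of its total, in 237 sequences with 60 leaders, of which 46.1% of reads matched. The Sf3b2 site at 5286939 had 2475 reads in 280 sequences, the Prpf4b site at 34883768 had 1072 in 169, and the Srsf4 site at 131900503 had 980 in 425. The most frequent leader at the Rbm25 site at 83668169, with 144 reads in all, held 20.1% of them, and the leader that matches the mRNA held 2.08%. The Sf3b3 site at 110814544 was the least diverse of the 7, with 226 reads in 28 sequences and 10 leaders, of which 67.3% of reads had the matching one.

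**Figure D2:**
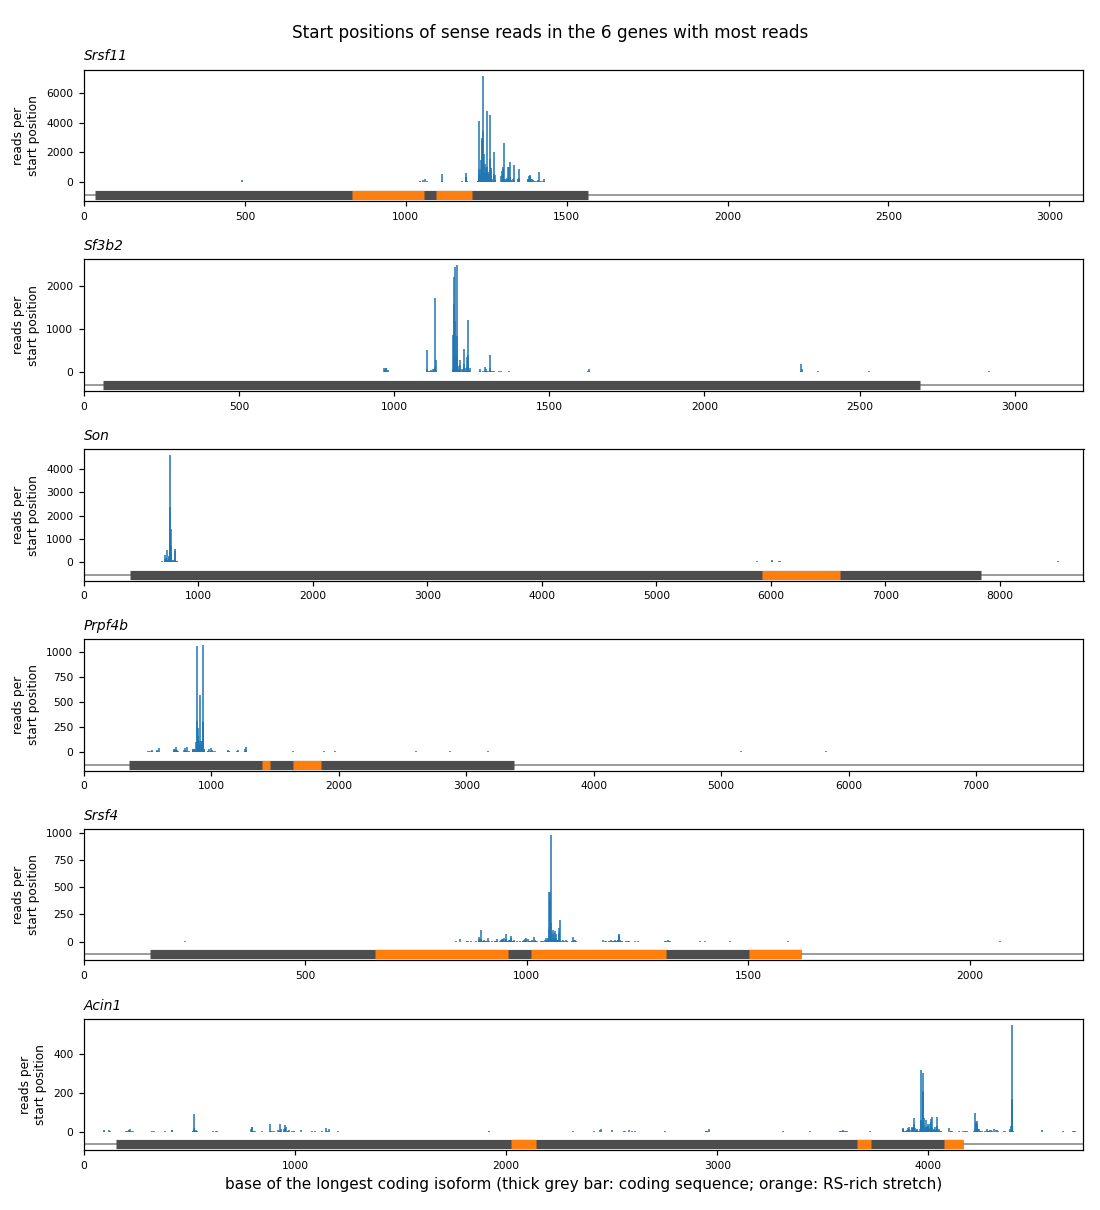
Reads per start position (vertical axis) along the longest coding isoform (horizontal axis, bases) of the 6 genes with most sense reads, with the coding sequence as a thick grey bar and RS-rich stretches in orange. In Son 94.1% of the reads start in a single peak of 100 bases near the beginning of the coding sequence. In Srsf11 83.1% start just after the RS-rich stretches, from where some reach back into the last one, and in Srsf4 the peak lies within one.

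Some reads crossed exon junctions. Of the 28 members with at least 200 reads on the longest coding isoform, 11 had a share of such reads above that of their windows. In Srsf11 39.1% of the reads on the longest coding isoform crossed a junction with at least 4 bases on each side, against 10.5% of its 34-base windows. Its highest position lies at the start of exon 12 of 13. The 7142 reads there have fewer than 4 bases in that exon and are not in the 39.1%. The share was 29.4% against 16.9% of windows in Sf3b2, 40.9% against 17.9% in Prpf6 and 28.0% against 14.9% in Prpf8. It was lower than the share of windows in Sf3b3 (9.94% against 15.03%), Snrnp200 (6.24% against 17.7%), Rbm39 (4.88% against 15.6%), Acin1 (0.377% against 10.3%) and Prpf4b (0% against 4.84%). Son and Srsf4, whose highest stretches each lie inside 1 exon, had 0.0872% and 0.109%.

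RS-rich stretches were defined on the translated coding sequence as 20-residue windows with at least 12 arginines or serines, at least 4 of each and at least 3 RS or SR pairs. Such a stretch was present in 30 of the 37 members and in 1.11% of other nuclear coding genes. Over the members with a stretch, 9.99% of coding reads (9.83 to 10.2) started in it, against 20.1% of coding length when each gene is weighted by its reads. By start positions the share was 24.1% (22.4 to 25.9) against 20.02% of length. Without Srsf11 the share of reads was 20.3%, on 18.6% of length (not weighted). The unweighted length with Srsf11 was 18.7%, so the 18.6% is not to be set against the weighted 20.1%. In other genes with such a stretch 14.5% of coding reads started there, against 7.79% of length weighted the same way. The members fell to both sides of their share of length. Reads were scored by start position only, so a read that starts after a stretch and reaches back into it was not counted.

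Srsf4, Srsf7 and Srsf6 were read mainly over their RS domains. In Srsf4 93.2% of coding reads and 80.3% of coding start positions lay in RS-rich stretches, which make up 49.3% of its coding length. Srsf7 had 91.0% of reads and 81.8% of positions against 50.4% of length, and Srsf6 71.6% and 68.4% against 38.3%. Of the Srsf7 coding windows, 99.7% within RS-rich stretches and 79.7% outside them return to the gene alone. Reads from its remaining windows are left out, which raises its RS-rich share. Clk1, with 1 short stretch of 21 residues that is 4.35% of its coding length, had 55.5% of coding reads there (52.4 to 58.6), at 19 of 68 coding positions. Pnn, a speckle and exon junction protein, had 55.1% against 13.6%, and Rbm39 22.9% against 13.6%. Clk4 (13.3% against 5.41%) and Luc7l2 (45.9% against 28.3%) were also above their share of length. For Luc7l2 the isoform used held 147 of its 907 sense reads. In all 8 of these members the share of start positions was above the share of length too.

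The opposite was seen in other members. In Tra2a RS-rich stretches are 40.8% of the coding length and held 5.97% of coding reads, at 7 of 70 coding positions. In Srsf11 3.79% of reads but 19.7% of positions started on the 22.1% of length. Its last RS-rich stretch ends at base 1207. The 4123 reads that start at base 1228 reach back into it, as do the 6686 reads of 40 bases that start at base 1239. The 3.79% leaves these reads out. In Prpf4b 9.24% of length held 0.116% of reads and 2.42% of positions. Luc7l had 1.91% of reads on 19.4% of length, and Srrm1 1.99% on 18.3%. Son had 2.23% of reads on 9.16% of length but 13.5% of its start positions there. Srrm2, a large speckle protein, had 24.6% of reads and 33.6% of positions on 28.9% of length. The isoform used for Srrm2 held 1215 of its 2529 sense reads. For Tra2b, Srsf10 and Srsf3 no such value can be read, since 0.647%, 0% and 12.9% of their RS-rich windows return to the gene alone. Of the other 22 members with a stretch and at least 200 sense reads, 8 lay above the share of length by reads, and 10 by positions.

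**Figure D3:**
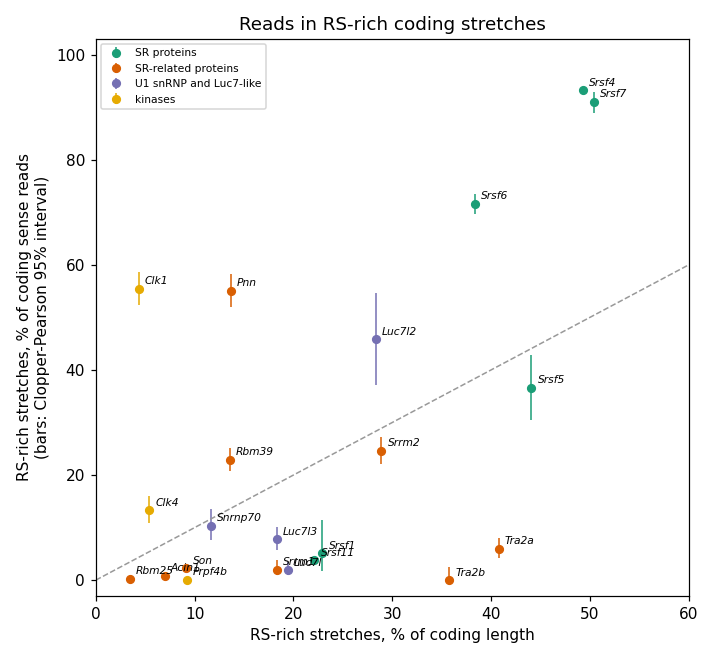
Share of coding sense reads that start in RS-rich stretches (vertical axis, %, bars are 95% Clopper-Pearson intervals) against the share of coding length in such stretches (horizontal axis, %) for the 22 members with a stretch, at least 200 sense reads and at least 50 coding reads. Srsf4, Srsf7, Srsf6, Clk1 and Pnn lie above the dashed line of equal shares, and Srsf11, Tra2a and Luc7l below it; Tra2b is plotted at 0 although its stretches can hardly be matched.

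Coding sequence held nearly all reads of these mRNAs. On the longest coding isoforms, 97.2% of member reads started in coding sequence, 2.75% in the downstream and 0.0471% in the upstream untranslated region, where the shares of length, with genes weighted by their reads, were 60.97%, 36.4% and 2.62%. By start positions the coding share was 89.95%. In other nuclear coding genes 84.3% of reads and 72.5% of positions were coding, on 54.2% of weighted length. Several members had most isoform reads in the downstream region. Srsf2 had 115 of 120 isoform reads there, Srsf12 84 of 85 and Srsf1 206 of 304, and Tra2a had 988 there against 670 coding. Most Srsf12 reads matched only with mismatches. The 304 isoform reads of Srsf1 are a minor part of its 1218 sense reads, all of which matched a coding isoform. Srsf3 (122 of 123) and Srsf10 (193 of 231) cannot be read this way, since 7.19% and 38.3% of their coding windows outside RS-rich stretches, and 12.9% and 0% of those within, return to the gene alone.

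Isoforms that make no protein took a small part of the pooled reads and a large part of the reads counted for a few genes. Of the members, 28 have an annotated NMD isoform and 34 a retained intron isoform. Reads found only on noncoding isoforms were 3.56% of member sense reads (3.48 to 3.65). Of member sense reads 0.655% were counted as NMD, 2.58% as retained intron and 0.327% as other noncoding. A read that matched more than 1 of these classes was counted in the first named. In other nuclear coding genes these shares were 0.212%, 3.60% and 1.15%, with 4.96% in all. By start positions 2.32% of member positions were counted as NMD (1.89 to 2.81), against 0.519% in other genes (0.494 to 0.545). Most of these member positions lay in Tra2b, Tra2a and Luc7l2, which held 456, 178 and 296 of the 1158 NMD reads. For noncoding isoforms of any class the shares of positions were 13.1% in members and 9.10% in other genes. How many such isoforms are annotated differs between genes, and its part in these shares was not tested. Of 30 members with at least 200 sense reads and an NMD or retained intron isoform, 4 had over 50% of reads on noncoding isoforms only, against 8.41% of all such genes. These 4 were U2af2, Tra2b, Srsf3 and Luc7l2. Of their coding windows outside RS-rich stretches, in the same order, 36.7%, 31.4%, 7.19% and 54.4% return to the gene alone. Coding reads from the remaining windows are left out of these counts.

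The poison exons of both Tra2 genes were read. They are shown with the early stop codon of the NMD isoform in capitals, and beside them that of Srsf3, which held 2 reads. None of these 3 exons overlaps an exon of a coding isoform. Both Tra2 genes lie on the minus strand and Srsf3 on the plus strand.
Tra2a: agattggtcagaTAGaagcacttgaat
Tra2b: ctcaggaataagTGAagctgaaatttg
Srsf3: ctcaccaccctcTGAatctgcattagc
In Tra2b, 479 reads started at 32 positions of its 276-base exon 2 (chr16:22258986-22259261), which was 58.4% of its counted sense reads. Of the 479 reads, 456 matched an NMD isoform and no coding isoform. A retained intron isoform of Tra2b has an exon that holds all of this one (chr16:22258064-22259261), so such reads can match either. Most Tra2b coding windows are not unique to the gene and their reads are left out, so 58.4% does not measure how often the exon is spliced in. In Tra2a, 178 reads started at 25 positions of the 306-base exon 2 (chr6:49252803-49253108), or 8.14% of its reads. The purine-rich hexamer GAAGAA is an exonic enhancer motif to which Tra2 proteins are known to bind. It occurs 3 times in the 276-base Tra2b exon and 4 times in the Tra2a exon, on the RNA strand and with overlaps counted. In Srsf3, 2 reads started at 1 position of the 456-base exon 4 (chr17:29039454-29039909). Srsf7 had 0 reads in its 460-base poison exon, where a count of 0 allows up to 3. In Srsf11, 14 reads and 8 reads lay in 2 such exons.

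Counting reads that match several genes moved these shares in both directions, and the cause was not tested. Only 79.6% of the Tra2b windows return to that gene alone. Of its coding windows 31.4% outside RS-rich stretches and 0.647% within them do, so most of its coding reads could not be counted. With reads of several genes included the Tra2b share on noncoding isoforms was 51.6% in place of 73.5% (70.4 to 76.5). For Tra2a, all of whose windows return to it, the share was 23.7% (21.9 to 25.5) and 23.9% with such reads. Luc7l2 fell from 50.7% to 13.4%, and Srsf10 from 50.1% to 28.7%. In Srsf10 all 288 noncoding reads lay in 1 exon of a processed transcript (chr4:135858842-135859201). U2af1, with 62 of its 64 reads on retained introns, fell from 96.9% to 5.21%. Shares rose in members whose coding windows all return to the gene, in Pnn from 0.102% to 32.6%, in Rbm25 from 17.0% to 27.9%, in Sf3b1 from 8.53% to 18.6% and in Snrnp200 from 0.106% to 8.33%.

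Retained intron isoforms took most of the sense reads counted for U2af2 and Srsf3 and a large part of those of Snrnp70. U2af2, the large subunit of the factor that binds the polypyrimidine tract, had 267 of 294 sense reads on retained intron isoforms, all in 1 exon of 828 bases that keeps an intron (chr7:5068733-5069560). A coding isoform took 19 of its reads. The share on all noncoding isoforms was 93.5%, or 82.6% with reads of several genes. Srsf3 had 213 of 338 reads on retained intron isoforms at 40 positions, 204 of them in the single exon of a 1-exon isoform (chr17:29032673-29035508). Its share on all noncoding isoforms was 63.6%, or 57.2% with reads of several genes. Only 7.19% of the Srsf3 coding windows outside RS-rich stretches and 12.9% of those within return to it alone. Its split between coding and retained intron isoforms can therefore not be read from these counts. Snrnp70, whose coding windows all return to the gene, had 309 of 746, or 41.4% (37.9 to 45.1), with 231 in 1 exon of 1897 bases (chr7:45390988-45392884). The share in Snrnp70 was 58.3% with reads of several genes. Further members with a part of their reads on retained introns were Rbm25 with 462 of 2754, Tra2a with 340 of 2187, Clk1 with 116 of 1159 and Srsf7 with 169 of 1525. Srsf11 had the largest number of the 37, 1771 of 85015, and 2.11% of its reads lay on noncoding isoforms in all. Among members with at least 200 sense reads, Srsf1, Luc7l, Prpf6 and Prpf8 had 0 reads on noncoding isoforms. The searched introns are only those kept in an annotated isoform.

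For the 5 members with the highest noncoding share among those with at least 200 sense reads, the highest noncoding site is given as 30 bases of RNA with the start position as the last lower-case base, as above. The Tra2b site (chromosome 16, 22258462, 102 reads) and the Srsf3 site (chromosome 17, 29034634, 37 reads) lie in exons of retained intron isoforms, the Luc7l2 site (chromosome 6, 38565699, 138 reads) in a 68-base exon of an NMD isoform, the Srsf10 site (chromosome 4, 135858955, 66 reads) in the exon named above, and the U2af2 site (chromosome 7, 5069284, 46 reads) in an exon of a retained intron isoform. Tra2b is on the minus strand and the other 4 genes on the plus strand.
Tra2b: gaaagctataccgcttaagtccaaATGTTG
Srsf3: taagacagtaaaggaaatttttgtGGCAGT
Luc7l2: catccactcacatcttaaaaaaatACAGGG
Srsf10: ccaaagacctcttaaggatcaggcTTGAAG
U2af2: ttttttcctactattgacctctacACCCCT
The reads at these sites had few distinct sequences, with 3 in Tra2b, 5 in Srsf3, 6 in U2af2 and 11 in both Luc7l2 and Srsf10. Of the 102 Tra2b reads 98.04% shared 1 leader.

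**Figure D4:**
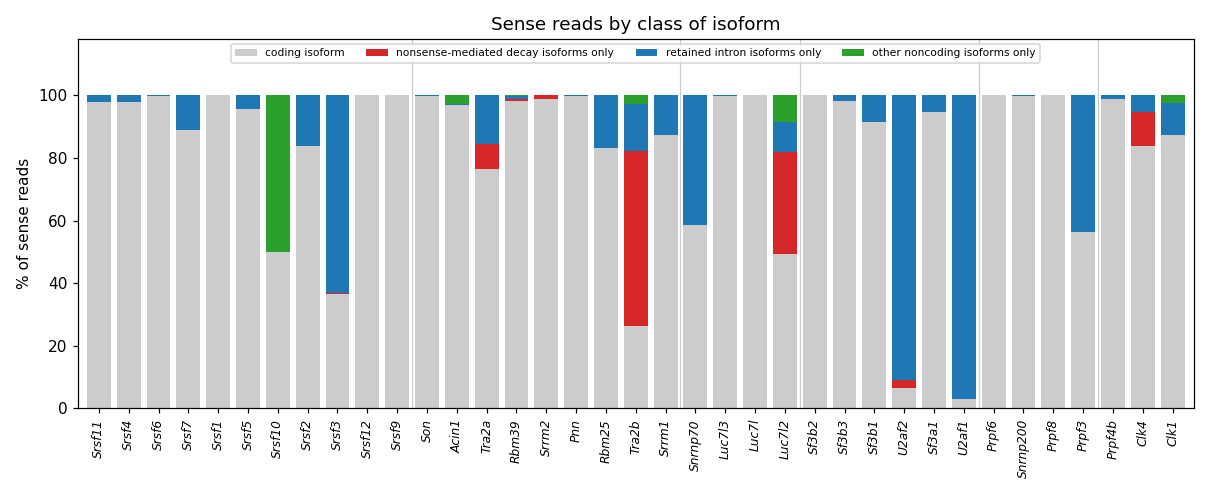
Share of each gene's sense reads (vertical axis, %) by class of isoform, by gene and role. Each read was given to the first class it matched, in the order coding (grey), NMD (red), retained intron (blue) and other noncoding (green). Tra2b has 456 of 820 reads counted as NMD, which can also match a retained intron isoform. U2af2 has 267 of 294 counted as retained intron, and the bars of Srsf1, Luc7l, Prpf6 and Prpf8 are wholly grey.

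Antisense reads made up 2.81% of member reads (2.73 to 2.88), 4.98% without Srsf11 and 7.84% with reads of several genes counted. By start positions the share was 13.8%. The shares were 13.02% of reads and 23.5% of positions in other nuclear coding genes. Of 36 members with at least 50 reads of both strands, 0 were antisense for more than 50% of reads by the whole of the interval, against 13.1% of all such genes. The share was 0.346% in Srsf11, 0.106% in Srsf4 and 1.28% in Sf3b2. It was highest in U2af2 with 32.3% (27.9 to 36.9), Prpf8 with 31.1%, Srrm2 with 29.4% and Srrm1 with 26.9%. Srrm2 had 1051 antisense reads at 113 positions. It shares exon sequence with Elob on the other strand, but reads that matched Elob equally well in sense were not counted as antisense. No gene is annotated opposite the exons of U2af2, Prpf8 or Srrm1. In Clk1 123 of 133 antisense reads lay at 1 position. Srsf9 had 20 antisense reads, all at 1 position, and 12 sense reads at 6 positions, too few for a call.

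**Figure D5:**
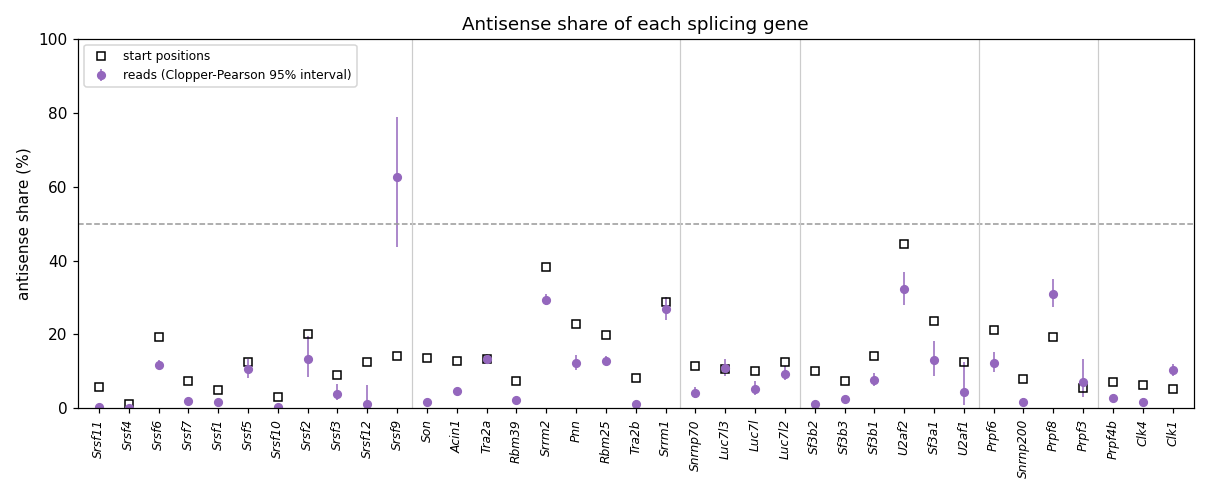
Antisense share of each gene (vertical axis, %) by reads (purple circles with 95% Clopper-Pearson intervals) and by start positions (open squares). All members with at least 50 reads lie below the dashed line at 50%, with U2af2 highest at 32.3%, and Srsf9 at 62.5% rests on 32 reads.

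Read length divided some members. Reads of 36 bases made up 12.4% of member sense reads (12.2 to 12.5), 11.01% of those of other nuclear coding genes, and 19.8% of all searched reads. The median over members with at least 200 sense reads was 9.17%. Srsf4 stood apart with 2854 of 5632 reads, or 50.7%, and Prpf6 had 33.3%, whereas Prpf4b had 1.79% and Sf3b1 2.88%. The level of Srsf4 was 128 RPKM in 36-base and 31.2 RPKM in 40-base reads, each scaled to its own total, and that of Prpf4b was 2.37 and 32.2 RPKM. No source used here says what the read lengths stand for, and whether a difference between libraries moves with them was not tested.

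Sequence around the start positions was rich in purines. In the 34-base windows that end at coding start positions of members, 63.98% of bases were A or G, against 55.04% over all coding windows of the same isoforms, and 65.7% when weighted by reads. In other nuclear coding genes with at least 200 sense reads the values were 58.7% and 53.8%. GAAGAA, searched on the RNA strand, was in 10.6% of member start windows, in 5.55% of all their coding windows, and in the windows of 14.99% of reads (11.4% without Srsf11). In other genes it was in 8.02% of start windows and in 4.29% of all windows. GGGG was in 7.54% of member start windows and 7.34% of all their windows. On the other strand, TTCTTC was in 1.91% against 1.28% and CCCC in 9.57% against 11.4%. By reads the shares were 2.91% for GGGG, 5.76% for TTCTTC and 27.5% for CCCC. Without Srsf11 they were 5.58%, 11.8% and 6.64%, in the same order. In other genes they were 4.44%, 0.559% and 4.11%, and 9.93% for GAAGAA. Among the 6 bases after the start position, A made up 33.97% at member positions and 28.6% over all windows, and 49.9% when weighted by reads (41.8% without Srsf11), against 29.2%, 27.9% and 32.1% in other genes. Windows overlap one another, and the shares are descriptions of this table.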

How the data were processed

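The deposited table has no header and holds the authors' raw read count of each distinct read sequence, not scaled to depth. The submitters' processing notes name the build mm9; the table's name carries the words uniq, noribo and nohomop, which no label explains. The aligner and filter settings are not given in the sources used here. Reads of 26 bases or more were matched, without their leading 6 bases, to GENCODE M21 transcripts (GRCm38) with bwa 0.7.19, up to 2 mismatches, no gaps and up to 1000 placements. A read was given to a gene if all its best sense placements were on it, ignoring antisense placements on genes that overlap it on the opposite strand, or if it had antisense placements on 1 gene and no others. Of 20000 simulated reads of member transcripts, 94.2% returned to their gene and strand and 5.50% matched several genes. A read on any coding isoform was counted as coding, then as NMD, retained intron or other.

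RPKM uses merged exons. Intervals are exact Poisson or Clopper-Pearson (scipy 1.17.1). No test was made, since the table has no replicates. Genes given in full were the 12 members with most sense reads, extremes of each role, the highest noncoding, RS-rich and antisense shares, and the 4 highest other splicing genes. Others were named after their values were seen. Members, lists and thresholds were chosen with earlier results of these data known. The stretches of 100 bases, junction and sequence descriptions were added after the data had been seen.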

Additional observations from a re-analysis of the deposited data

How the results depend on the processing

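The number of members with at least 50 sense reads was 36 as reported and between 26 (36-base reads) and 36 under the other settings. The median level of 4.08 RPKM became 5.77 with each distinct sequence counted once, 3.57 without mismatches, 1.89 in 36-base reads, 4.56 in 40-base reads and 5.60 with reads of several genes counted for each. Start positions give no RPKM. In the same order, the antisense share of 2.81% became 3.91%, 2.57%, 3.69%, 2.65% and 7.84%, the share on noncoding isoforms of 3.56% became 3.79%, 3.72%, 2.37%, 3.73% and 4.63%, and the share in RS-rich stretches of 9.99% became 17.98%, 9.10%, 24.3% and 7.53%, and 10.1% with reads of several genes. With each start position counted once these shares were 13.8%, 13.1% and 24.1%. The antisense share was 2.17% in members without a gene on the other strand, and the RS-rich share 4.42% with at least 14 arginines or serines in 20 residues. Leaving out Srsf11, chosen after seeing the data, gave 4.98%, 4.91% and 20.3%. Of 37 members, the level moved by over 1.5 times in 25 with 36-base reads, in 14 with distinct sequences, in 8 with reads of several genes, in 3 without mismatches and in 1 with 40-base reads. The 3 without mismatches were Srsf4, Acin1 and Srsf12, all lower. The causes were not tested. The planned search of introns outside annotated isoforms was not run. No paired analysis was possible because the table has 1 column of counts, with no sample or replicate named.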
